A study of Mus musculus with 18 samples.

Results

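The transcripts described here are 10 long noncoding RNAs of the mouse, out of 49315 genes counted in bone marrow-derived macrophages (BMDMs). For 8 of them (AI480526, Gm4673, 9430060I03Rik, Gm12977, Gm10138, Zmiz1os1, Gm11491 and Gm26917) the members were chosen by a lower count in the macrophages labelled HDAC3 KO than in those labelled WT after exposure to apoptotic cells, with no stated cut-off. Malat1 and Neat1 were added as nuclear reference RNAs. The macrophages were differentiated from femoral bone marrow in medium conditioned by L929 cells. The WT label stands for mice in which an exon of Hdac3, the gene of histone deacetylase 3, lies between loxP sites (HDAC3 f/f in the study), and the HDAC3 KO label for mice that also carry Cre recombinase in the lysozyme 2 locus, which is active in myeloid cells. Each genotype was left untreated, or was cocultured for 45 min with non-apoptotic cells (NACs) or with apoptotic cells (ACs), washed and kept for 5 h. Both kinds of added cell were K562, a human leukemia line, and the ACs had received 15 min of UVB light, 2 h before use. Each of the 6 groups had 3 biological replicates from 3 animals, which gave 18 libraries. The ages of the mice are not given in the sources used here.

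Long noncoding RNAs are transcribed and spliced like messenger RNAs but encode no known protein. Many are antisense transcripts, which start within or beside a protein-coding gene and run along its opposite strand, and many are kept at low levels by the nuclear RNA exosome, a complex that degrades RNA in the nucleus. Neat1 is the scaffold of paraspeckles, nuclear bodies built from RNA-binding proteins, and its short form is polyadenylated. Malat1, its neighbour on the chromosome, gathers in nuclear speckles beside splicing factors.

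Of the 8 picked transcripts, 6 are annotated as antisense to a protein-coding gene. Gm4673 (ENSMUSG00000097750; chr7:30956909-30961619, forward strand of GRCm38) runs opposite Lsr, a lipoprotein receptor of the cell surface, with 946 of its 4452 exonic bases in exons of that gene. 9430060I03Rik (ENSMUSG00000100632; chr1:92933526-92950590, reverse strand) lies opposite Capn10, a calpain protease, and Gm12977 (ENSMUSG00000085009; chr4:133871830-133876533, forward strand) opposite Rps6ka1, the ribosomal S6 kinase RSK1. Gm10138 (ENSMUSG00000100954; chr1:151339604-151345231, reverse strand) covers the start of Ivns1abp, which encodes an actin-binding kelch protein. Zmiz1os1 (ENSMUSG00000087535; chr14:25455737-25461128, reverse strand) lies opposite Zmiz1, a transcriptional coactivator, and Gm11491 (ENSMUSG00000085310; chr11:87121567-87126958, reverse strand) opposite Ska2, a protein of the kinetochore. AI480526 (ENSMUSG00000090086; chr5:123133723-123141666, reverse strand) is an intergenic RNA whose start lies 527 bases from Setd1b, a histone methyltransferase gene on the other strand, and 3147 of its 4725 exonic bases lie in exons of the noncoding genes Gm38102 and 4932422M17Rik on the other strand. Gm26917 (ENSMUSG00000097971; chr17:39843013-39846341, forward strand) has 1 exon with 70.7% G and C and lies 617 bases before Gm42418, at the locus where the mouse genome carries a copy of the ribosomal RNA precursor. Malat1 (ENSMUSG00000092341; chr19:5795690-5802672) and Neat1 (ENSMUSG00000092274; chr19:5824708-5845478) both lie on the reverse strand.

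The first 3 sequences below show how an antisense transcript and its host gene share bases, which decides what an unstranded count can tell about them. They are stretches of the transcripts in GENCODE M21 on GRCm38, 5′ to 3′, and capitals mark bases that are coding exon of the host gene on the other strand. The stretch of Gm4673 is chr7:30958551-30958780 (forward strand, 101 of 230 bases shared with Lsr).
Gm4673: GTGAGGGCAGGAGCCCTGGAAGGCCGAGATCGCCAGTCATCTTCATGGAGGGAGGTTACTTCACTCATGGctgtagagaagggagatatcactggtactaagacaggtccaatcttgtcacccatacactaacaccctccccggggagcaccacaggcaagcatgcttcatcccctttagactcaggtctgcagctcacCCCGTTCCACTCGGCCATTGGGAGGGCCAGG
The stretch of 9430060I03Rik is chr1:92934874-92935103 (reverse strand, 141 of 230 bases shared with Capn10).
9430060I03Rik: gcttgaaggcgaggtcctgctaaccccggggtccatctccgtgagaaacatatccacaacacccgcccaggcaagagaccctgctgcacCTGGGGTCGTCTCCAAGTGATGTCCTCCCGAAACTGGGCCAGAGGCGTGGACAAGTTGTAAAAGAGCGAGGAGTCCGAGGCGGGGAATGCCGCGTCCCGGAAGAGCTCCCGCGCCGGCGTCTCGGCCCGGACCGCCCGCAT
The stretch of Gm12977 is chr4:133871830-133872023 (forward strand, 137 of 194 bases shared with Rps6ka1).
Gm12977: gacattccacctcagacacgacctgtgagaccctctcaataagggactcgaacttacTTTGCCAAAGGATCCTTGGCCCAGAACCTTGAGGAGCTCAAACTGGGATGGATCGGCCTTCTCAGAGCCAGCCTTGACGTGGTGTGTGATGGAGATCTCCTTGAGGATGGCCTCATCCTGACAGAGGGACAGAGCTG

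The stretch of Gm10138 is shown because it lies within Gm10138 and just before the first annotated start of Ivns1abp on the other strand. It is chr1:151344227-151344476 on the reverse strand, with 68.0% G and C, and capitals mark its 24 CG dinucleotides.
Gm10138: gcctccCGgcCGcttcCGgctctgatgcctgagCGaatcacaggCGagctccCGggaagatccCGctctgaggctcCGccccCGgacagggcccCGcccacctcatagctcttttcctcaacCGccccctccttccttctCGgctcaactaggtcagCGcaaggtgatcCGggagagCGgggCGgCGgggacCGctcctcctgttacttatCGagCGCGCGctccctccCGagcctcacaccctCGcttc
The last 60 bases of Malat1 (chr19:5795690-5795749, reverse strand) and of the short Neat1 transcript (chr19:5842307-5842366, reverse strand) show the annotated ends of the reference RNAs. Capitals mark the letters AATAAA, the common polyadenylation signal, searched on the transcript strand.
Malat1: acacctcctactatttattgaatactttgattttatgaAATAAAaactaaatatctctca
Neat1: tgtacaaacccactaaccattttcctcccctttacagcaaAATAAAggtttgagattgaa
Each end holds 1 such match. Of 9100 annotated intergenic long noncoding transcripts, 2826 (31.1%) hold the same letters in their last 60 bases, so the match is a description of these ends.

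The deposited values are whole counts per gene. Library totals lay between 4704491 and 26421267 (median 16477929). Levels are given as CPM, each count taken relative to its library's total, with TMM scaling over the 18 libraries. No strand was used in counting, as far as the values show: the 408 genes whose exons lie wholly in exons of an opposite-strand gene all had 0 counts, as reads shared by both strands would. Reads of an antisense transcript and intronic reads of its host gene therefore cannot be told apart. The level of Hdac3, counted over the whole gene with the exons that Cre does not remove, lay between 3.38 and 74.6 CPM and did not separate the genotype labels, so each library is named by its label. HDAC3 KO untreated replicate 1 stood apart from the other libraries. It had the lowest total, the fewest genes with a count (15624) and 10.7% of its counts on long noncoding genes, against a median of 2.88%, and 2.33% of its counts fell on Gm26917. All 12 macrophage markers were detected in every group, and their summed level was 14700 to 32030 CPM. In bulk RNA, fewer cells with a transcript and less of it per cell cannot be told apart.

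With ACs, the 8 picked transcripts were low under the HDAC3 KO label, which is what chose them, so these values carry no test. AI480526 had 25.7, 23.1 and 24.1 CPM in the WT libraries and 1.19, 1.93 and 3.38 CPM in the HDAC3 KO libraries. Gm10138 had 35.5, 39.1 and 32.5 CPM against 2.58, 6.68 and 5.67 CPM. Gm26917, by far the most abundant, had 13750, 13490 and 12350 CPM against 1550, 1764 and 3600 CPM. For each of these, the highest HDAC3 KO library lay well under the lowest WT library. The fitted log2 difference between the labels was −4.04 (SE 0.708) for Gm11491, −3.95 (SE 0.549) for Gm12977, −3.84 (SE 0.556) for 9430060I03Rik and −3.56 (SE 0.495) for AI480526. It was −3.27 (SE 0.463) for Gm4673, −2.89 (SE 0.472) for Gm10138, −2.88 (SE 0.500) for Zmiz1os1 and −2.58 (SE 0.449) for Gm26917. Gm11491 rested on few reads there, with 3, 13 and 3 counts in the HDAC3 KO libraries, and it passed the filter on low counts through the WT libraries. Of all 12304 genes tested with ACs, 2.96% were called lower, and without HDAC3 KO ACs replicate 1 the edgeR fit called 0 genes (1810 had an unadjusted p under 0.05, and DESeq2's Wald test on all 6 libraries called 1373). The groups with ACs did not overlap for the 8 picked transcripts, which their choice largely fixed, nor for Neat1. Of all genes 13.5% were lower in this way, and nothing is read from the difference.

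The added references were not chosen by their level with ACs. Neat1 had 158, 75.4 and 154 CPM in WT and 36.1, 72.0 and 75.0 CPM in HDAC3 KO libraries with ACs, a log2 difference of −1.12 (SE 0.431). Malat1 had 900, 184 and 836 CPM against 108, 2274 and 227 CPM. Its log2 difference was 0.47 with an SE of 1.27, and it was −1.95 without HDAC3 KO ACs replicate 2, the library with 2274 CPM.

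**Figure D1:**
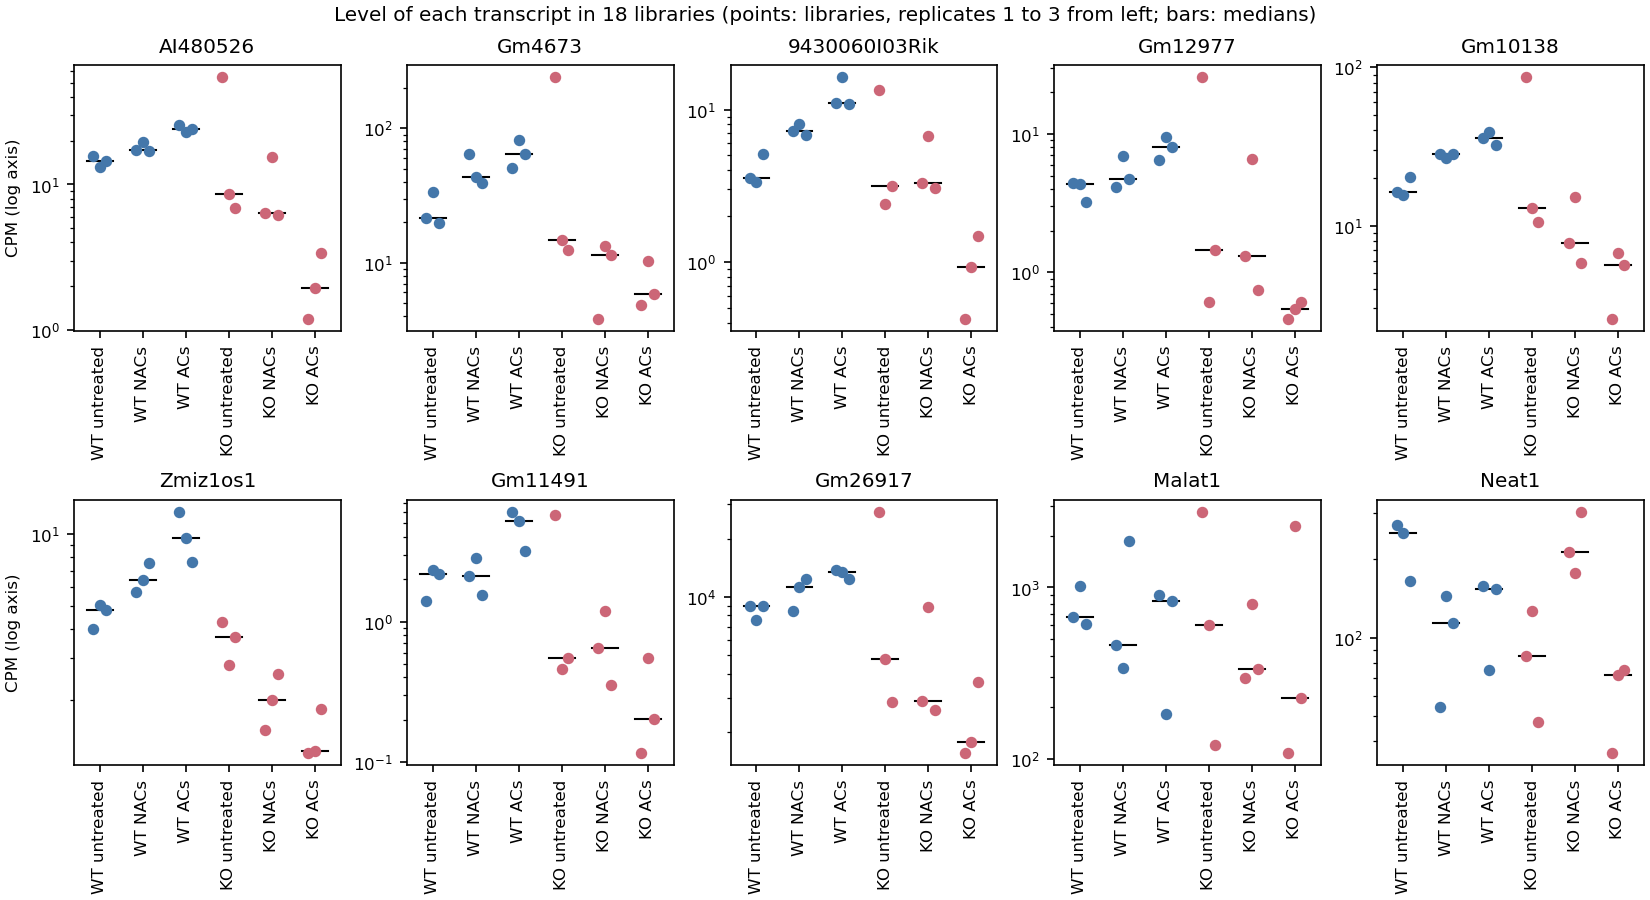
Level of each of the 10 transcripts in each of the 18 libraries, in CPM on a log axis that differs between panels. Points are libraries (replicates 1 to 3 from left), bars are group medians, blue is the WT label and red the HDAC3 KO label. For the 8 picked transcripts the HDAC3 KO ACs libraries are at the bottom of most panels and HDAC3 KO untreated replicate 1 is far above its group, except for Zmiz1os1 (4.27 CPM against 2.81 and 3.68 CPM).

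The transcripts differed widely in abundance. Per kilobase of exon, the group means were 692 to 3963 CPM for Gm26917 and 68.2 to 167 CPM for Malat1, and those of the other 8 lay between 0.246 and 20.0 CPM. The order among these 8 differed between groups: Neat1 was above Gm4673 in WT untreated (11.1 against 5.62 CPM) and HDAC3 KO NACs (11.1 against 2.13 CPM) and under it in WT NACs (5.03 against 11.0 CPM). Values per kilobase divide by all exonic bases, although bases in exons of both strands gave no counts. They are thus too low where such bases are many: AI480526 has 1578 bases of its own out of 4725. By library, the highest level exceeded the lowest by a factor of 8.45 for Neat1 and 62.9 for Gm4673, with the other transcripts between. In the order of group means, HDAC3 KO ACs came last for 9 of the 10 transcripts, and for Malat1 HDAC3 KO NACs did. WT ACs came first for AI480526, 9430060I03Rik, Zmiz1os1, Gm11491 and Gm26917, and HDAC3 KO untreated for Gm4673, Gm12977, Gm10138 and Malat1, in each case through replicate 1 of that group. Neat1 had HDAC3 KO NACs first (231.5 CPM) and WT untreated next (229.8 CPM), which overlapped. For Malat1, no neighbouring groups in that order were separated.

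The comparison of the genotype labels with NACs asks whether the picked transcripts were also low in libraries other than those the stated choice rests on. Gm4673 was the clearest. It had 64.8, 43.5 and 39.1 CPM in the WT libraries and 3.82, 13.2 and 11.4 CPM in the HDAC3 KO libraries, so every HDAC3 KO library was lower. The log2 fold change was −2.36 (SE 0.398, edgeR quasi-likelihood test, Benjamini-Hochberg adjusted p = 0.00841). Gm10138 had 28.4, 26.8 and 28.4 CPM against 7.73, 15.1 and 5.82 CPM, again without overlap. The fitted log2 value was −1.54 (SE 0.366, edgeR adjusted p = 0.0443). These 2 transcripts passed the threshold out of 10 tested, against 0.327% of all 11923 genes called lower. Neither call held in every fit. Both were lost with library totals alone (adjusted p = 0.0643 and 0.112, edgeR), with all 18 libraries in 1 fit (adjusted p = 0.288 for each, edgeR) and with an offset for GC share and exon length (log2 fold changes of −1.90 and −1.01, adjusted p = 0.113 and 0.197, edgeR), alone or with a replicate block, and without WT NACs replicate 1 the edgeR fit called 0 genes at all (1652 had an unadjusted p under 0.05). The call on Gm10138 was also lost without WT NACs replicate 3, HDAC3 KO NACs replicate 1 or HDAC3 KO NACs replicate 3 (adjusted p = 0.203, 0.123 and 0.147, edgeR). The log2 fold changes over those fits stayed between −2.61 and −1.90 for Gm4673 and between −1.96 and −1.01 for Gm10138.

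The other picked transcripts were fitted lower with NACs without passing the threshold in the main edgeR fit. Zmiz1os1 had 5.71, 6.40 and 7.58 CPM in WT and 1.49, 1.99 and 2.58 CPM in HDAC3 KO libraries, with no overlap, and a log2 fold change of −1.67 (SE 0.444, edgeR adjusted p = 0.0630). It passed with DESeq2 size factors (edgeR adjusted p = 0.0449), without WT NACs replicate 2 (edgeR adjusted p = 0.0208) and in DESeq2's Wald test (adjusted p = 0.00898). Gm11491 had 2.13, 2.82 and 1.55 CPM against 0.652, 1.19 and 0.352 CPM, and a log2 fold change of −1.61 (SE 0.642). Here too it passed the filter on low counts through the WT libraries, so its value carries no test. AI480526 was at 17.2, 19.7 and 16.9 CPM against 6.38, 15.5 and 6.21 CPM, and 9430060I03Rik at 7.28, 8.08 and 6.84 CPM against 3.31, 6.67 and 3.05 CPM. In both of these HDAC3 KO NACs replicate 2 was the highest of its group and close to the WT libraries. Gm26917 (8410, 11220 and 12320 CPM against 2893, 8873 and 2577 CPM) and Gm12977 (4.14, 6.93 and 4.72 CPM against 1.30, 6.57 and 0.742 CPM) overlapped through that same library. For these 4 transcripts the log2 fold changes ran from −1.15 (Gm26917, adjusted p = 0.147, edgeR) to −0.77 (9430060I03Rik, adjusted p = 0.241, edgeR). Over the alternative fits and with each library left out, they ran from −1.89 (without HDAC3 KO NACs replicate 2) to −0.28 (with the offset) for Gm26917, and from −2.29 (without HDAC3 KO NACs replicate 2) to −0.46 (without HDAC3 KO NACs replicate 3) for Gm12977. For AI480526 they ran from −1.44 to −0.64, and for 9430060I03Rik from −1.14 to −0.33. In all, 6 transcripts were lower without overlap (11.9% of all genes were) and 9 of 10 were fitted below 0 (50.1% of all genes were). Gm11491, which carries no test here, is in both counts. In the exact two-sided permutation test each transcript without overlap had p = 0.1, the smallest that 3 libraries against 3 can give.

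**Figure D2:**
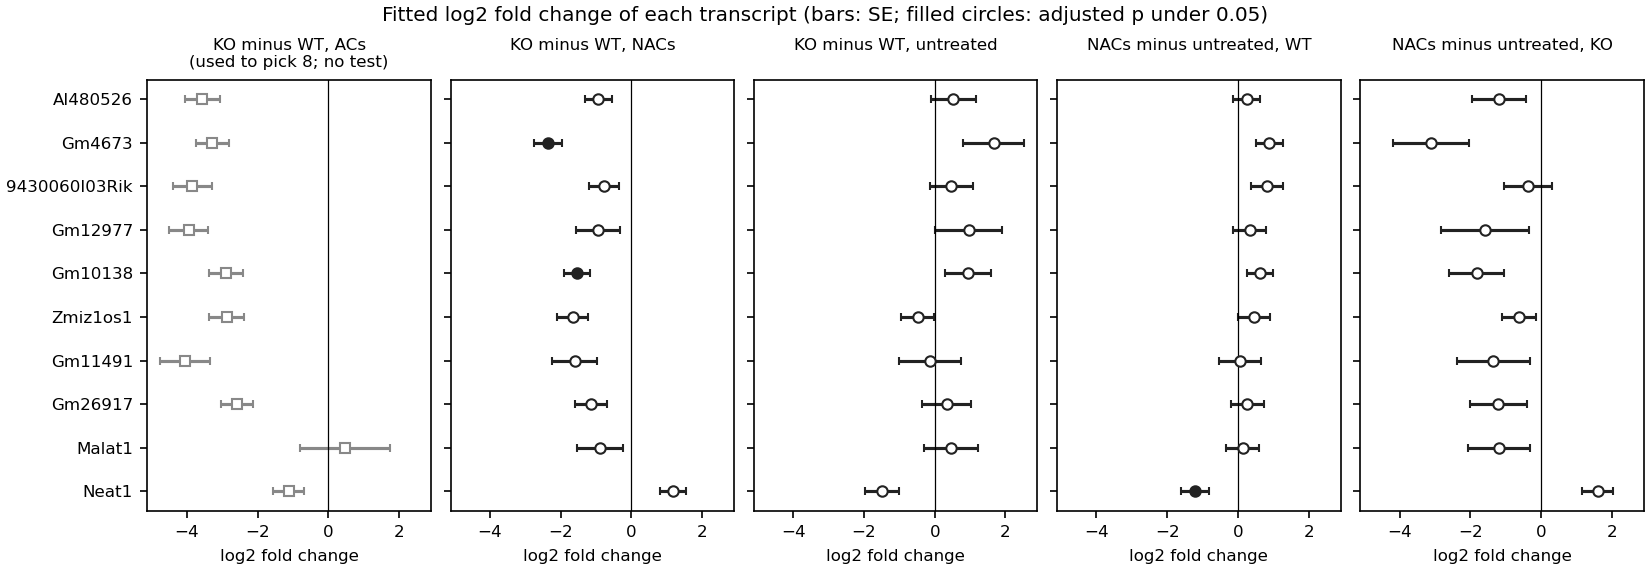
Fitted log2 fold change of each transcript in 5 comparisons, with bars of 1 SE, filled circles for an adjusted p under 0.05 and grey squares where the comparison chose the members and no test is given. With NACs the points of all but Neat1 lie left of 0, and Gm4673 (−2.36) and Gm10138 (−1.54) are filled, whereas in untreated macrophages 7 of the 10 points lie right of 0.

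Each antisense transcript was set beside the gene on its other strand. Lsr, the host of Gm4673, had 14.3 ± 3.69 CPM (SD, n = 3) in WT and 5.42 ± 2.02 CPM in HDAC3 KO macrophages with NACs, a log2 fold change of −1.38 (SE 0.388, edgeR adjusted p = 0.0726). Gm4673 and Lsr were thus both fitted lower. Ivns1abp, the host of Gm10138, went the other way, with 18.2 ± 6.41 CPM in WT and 35.8 ± 8.82 CPM in HDAC3 KO macrophages and a log2 fold change of 1.00 (SE 0.351, edgeR adjusted p = 0.119). In untreated macrophages Ivns1abp was lower under the HDAC3 KO label (12.5 ± 4.02 against 38.6 ± 4.37 CPM, log2 fold change −1.70, SE 0.435, edgeR adjusted p = 0.0333). That fit holds HDAC3 KO untreated replicate 1, which stands apart. The call was lost with the offset for GC share and exon length, where edgeR called 0 genes. It was also lost without WT untreated replicate 2 or 3 or HDAC3 KO untreated replicate 3, again with 0 genes called. With NACs Zmiz1 also had a positive value (0.78, SE 0.325, adjusted p = 0.160, edgeR) where Zmiz1os1 had a negative one. For Capn10, Rps6ka1 and Ska2 the values were −0.59, −0.35 and −0.63, with adjusted p = 0.363, 0.510 and 0.520 (edgeR). Across the 18 libraries, Pearson's r of log2(CPM + 1) between transcript and host was 0.31 for Gm4673 and Lsr, −0.35 for Gm10138 and Ivns1abp, −0.64 for Zmiz1os1 and Zmiz1, and between −0.25 and 0.07 for the other pairs. These values come from the same libraries and depths and are given as a description. Per kilobase, the mean level of Gm12977 over the 18 libraries was far under that of Rps6ka1 (4.27 against 46.4 CPM). Gm42418, beside Gm26917, had a log2 fold change of −1.77 with NACs (SE 0.458, edgeR adjusted p = 0.0588).

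**Figure D3:**
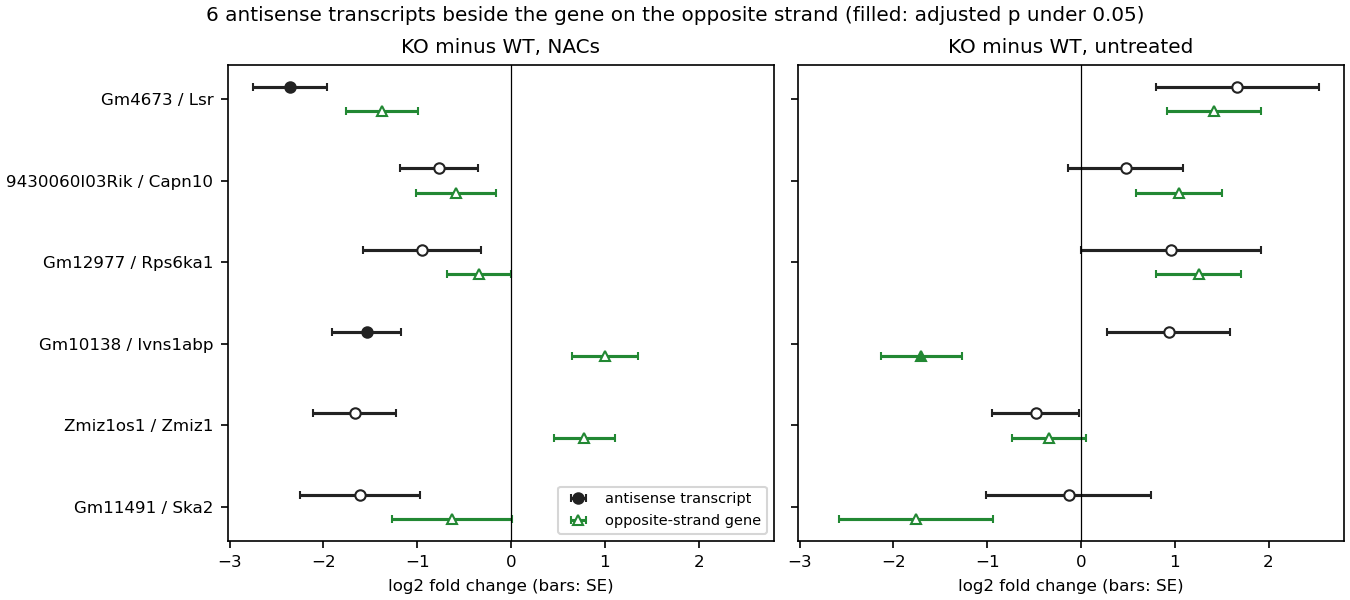
Log2 fold change, HDAC3 KO minus WT, of the 6 antisense transcripts (circles) and of the gene on the opposite strand (triangles) with NACs and in untreated macrophages, with bars of 1 SE and filled symbols for an adjusted p under 0.05. With NACs, Gm4673 and Lsr (−1.38) lie on the same side of 0, and Gm10138 and Ivns1abp (1.00) on opposite sides.

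In untreated macrophages the picked transcripts gave no common picture with all libraries in the fit, and 1 library stood apart from the rest. Gm4673 had 21.5, 33.7 and 19.8 CPM in WT libraries, and 240.1, 14.7 and 12.4 CPM in HDAC3 KO libraries. Gm10138 had 16.2, 15.7 and 20.2 CPM, and 86.4, 12.9 and 10.6 CPM. Gm12977 had 4.44, 4.34 and 3.24 CPM, and 25.6, 0.613 and 1.44 CPM. In each of these, HDAC3 KO untreated replicate 1 was the highest of all 18 libraries, and replicates 2 and 3 of its group were under every WT untreated library. The edgeR fit called 0 of the 10 transcripts (1 had an unadjusted p under 0.05, and DESeq2's Wald test called 1), whereas 11.6% of all 12101 genes passed. It put 7 of the 10 above 0, and 48.4% of all genes below 0. The log2 fold change of Gm4673 was 1.67 (SE 0.870, edgeR adjusted p = 0.176) and that of Gm12977 was 0.96 (SE 0.959, edgeR adjusted p = 0.472).

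Without HDAC3 KO untreated replicate 1, all 10 transcripts were fitted lower under the HDAC3 KO label. That library was noted partly for its long noncoding share, to which these transcripts belong, so the fit without it is no independent test. With each of the other 5 libraries left out, edgeR called 0 of the 10 (1 to 3 had an unadjusted p under 0.05). Without that library 6 of the 10 passed the threshold, in a fit that called 5887 genes in all and 27.0% of 12714 genes lower. Gm26917 had a log2 fold change of −1.31 (adjusted p = 0.0115, edgeR). Gm12977 was at −2.14, with 12 and 29 counts in the HDAC3 KO libraries, and Gm11491 at −2.12, with 9 and 11 counts. Both passed the filter on low counts through the WT libraries in this fit, so their places among the 6 carry no test. AI480526 and Gm4673 were each at −1.07 (adjusted p = 0.0336 and 0.0253, edgeR), and Neat1 was at −1.58 (adjusted p = 0.00127, edgeR). Malat1 was at −1.27 (adjusted p = 0.0533, edgeR). Without replicate 1, 2 libraries stand for the HDAC3 KO group, so the fit takes their spread with that of the WT group.

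**Figure D4:**
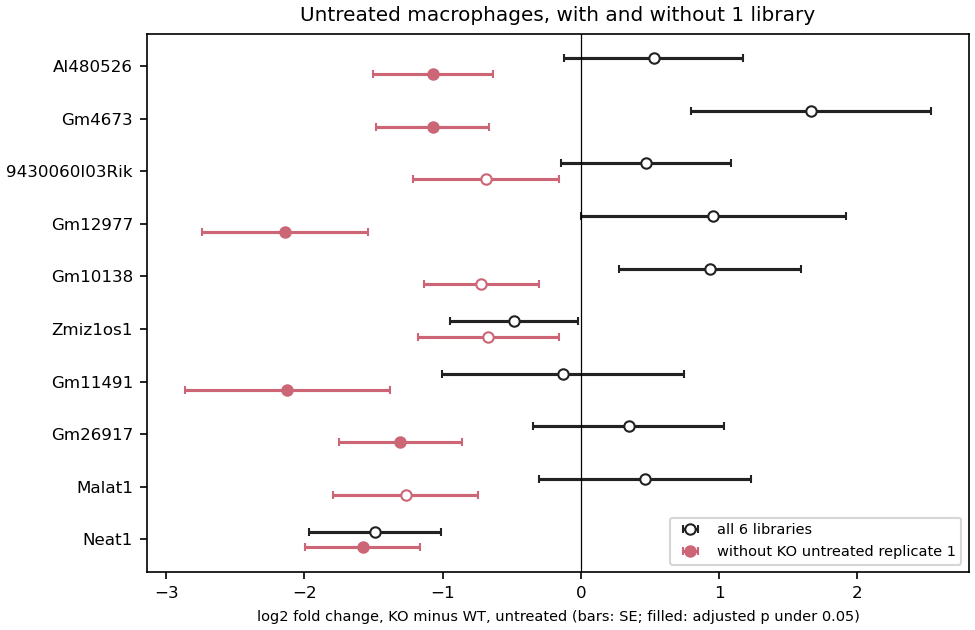
Log2 fold change, HDAC3 KO minus WT, in untreated macrophages with all 6 libraries (black) and without HDAC3 KO untreated replicate 1 (red), with bars of 1 SE and filled points for an adjusted p under 0.05. All 10 red points lie left of 0, and the black points of Gm4673 (1.67), Gm12977 (0.96) and 5 others lie right of it.

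Neat1 moved apart from the picked transcripts. In untreated macrophages it had 272, 253 and 165 CPM in WT libraries and 85.4, 127 and 47.5 CPM in HDAC3 KO libraries, and with NACs it had 54.3, 145 and 114 CPM in WT and 213, 177 and 305 CPM in HDAC3 KO libraries. The WT libraries were thus the higher ones without treatment and the HDAC3 KO libraries the higher ones with NACs, with no overlap in either. The log2 fold change between the labels was −1.49 untreated (SE 0.480, edgeR adjusted p = 0.0559) and 1.17 with NACs (SE 0.369, edgeR adjusted p = 0.0965), and neither passed the threshold. They passed in 4 and in 1 of the 8 alternative fits. In untreated macrophages Neat1 was the 1 transcript of the 10 whose groups did not overlap with the HDAC3 KO label lower, against 22.7% of all genes. With NACs it was the 1 transcript that was higher without overlap, against 15.1% of all genes. The difference between these fold changes, the interaction of genotype label with treatment, was 2.94 (SE 0.614, edgeR adjusted p = 0.00198 on 12 libraries). That interaction passed in each of the 8 alternative fits, with values from 2.51 to 3.51, and with each of the 12 libraries left out in turn, from 2.34 to 3.28 (adjusted p from 0.00133 to 0.0202, edgeR). An interaction was common in these libraries: 34.8% of 13005 genes passed, 22.1% in the direction of Neat1. That balance depended on the scaling, with 2869 genes higher and 1661 lower in the main fit. It turned with DESeq2 size factors (2284 and 2726) and widened with library totals alone (3601 and 400). The share of counts on mitochondrial genes turned in the same way, from 0.496 to 0.621% in WT and 0.272 to 0.434% in HDAC3 KO untreated libraries to 0.294 to 0.404% and 0.409 to 0.577% with NACs. With ACs it was 0.341 to 0.480% and 0.494 to 1.19%. The Y-linked genes Kdm5d and Eif2s3y also had an interaction (3.83 and 3.14, edgeR adjusted p = 0.00152 and 0.00211). An interaction passed lower for 2 of 3 dendritic cell, 3 of 6 B cell and 3 of 9 fibroblast genes. It did so for 1 of 12 proliferation and 1 of 12 granulocyte genes, against 12.8% of all genes. In these lists 0 passed higher, and 0 of 4 T cell and 0 of 4 K562 or erythroid genes passed. Of 12 macrophage genes 3 passed higher, among them Lyz2 (3.39) and Mrc1 (2.90), and 3 lower. The part of any of these in the interaction of Neat1 was not tested.

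Seen within a label, Neat1 fell by 1.21 on the log2 scale from untreated to NACs in WT macrophages (SE 0.405, edgeR adjusted p = 0.0455), as the 1 transcript of 10 past the threshold where 4.33% of all genes were called lower. This call held in 2 of the 8 alternative fits and in 2 of the 6 fits that left out a library. It was lost without WT untreated replicate 1 or 2 and without WT NACs replicate 1 or 3 (adjusted p from 0.148 to 0.283, edgeR). In HDAC3 KO macrophages the corresponding log2 fold change was 1.60 (SE 0.430, edgeR adjusted p = 0.0530), and 1.5 without HDAC3 KO untreated replicate 1 (edgeR adjusted p = 0.0295). In the main edgeR fit of NACs against untreated in HDAC3 KO macrophages, 0 of the 10 passed, against 6.54% of all genes. There 3 had an unadjusted p under 0.05 in edgeR, and DESeq2's Wald test called 2. These comparisons share their untreated and NACs libraries with the comparisons of the labels above.

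In the main edgeR fits, none of the picked transcripts passed the threshold between NACs and untreated macrophages. Gm4673 passed in WT macrophages in 1 of the 6 fits that left out a library (edgeR adjusted p = 0.026). DESeq2's Wald test called Gm4673 in WT (adjusted p = 0.0464) and Gm10138 in HDAC3 KO macrophages (adjusted p = 0.0369). In WT macrophages 5 of them (AI480526, Gm4673, 9430060I03Rik, Gm10138 and Zmiz1os1) were higher with NACs than untreated without overlap, against 13.8% of all genes, with log2 fold changes from 0.25 to 0.89 and adjusted p from 0.0891 to 0.654 (edgeR). Gm10138 went from 17.4 ± 2.48 CPM (SD, n = 3) to 27.9 ± 0.924 CPM. In HDAC3 KO macrophages Gm4673 had a log2 fold change of −3.12 (SE 1.08, edgeR adjusted p = 0.0952) and Gm10138 of −1.82 (SE 0.779, edgeR adjusted p = 0.15). Gm10138 also passed there with no filter and Gm4673 with all 18 libraries in 1 fit (edgeR adjusted p = 0.00901 and 0.0447). Without HDAC3 KO untreated replicate 1 these fold changes were −0.39 and −0.19 for Gm4673 and Gm10138. There Zmiz1os1 went from 4.27, 2.81 and 3.68 CPM to 1.49, 1.99 and 2.58 CPM, the 1 picked transcript that was lower without overlap, against 16.9% of all genes (log2 fold change −0.63, SE 0.474, adjusted p = 0.377, edgeR). Gm10138 had an interaction of −2.30 (SE 0.851, edgeR adjusted p = 0.0455), in a direction in which 12.8% of all genes passed. That share stands for 1661 genes, which became 2726 with DESeq2 size factors and 400 with library totals alone. The call on Gm10138 was lost in 4 of the 8 alternative fits and in 9 of the 12 that left out a library. The interaction of Gm10138 was −0.93 without HDAC3 KO untreated replicate 1 (adjusted p = 0.132, edgeR). Its host Ivns1abp had an interaction of 2.98 (SE 0.563, edgeR adjusted p = 0.00122) and Lsr one of −2.58 (SE 0.642, edgeR adjusted p = 0.00553), beside −3.85 for Gm4673 (SE 1.42, edgeR adjusted p = 0.0565), which was −1.40 without HDAC3 KO untreated replicate 1 (edgeR adjusted p = 0.0384).

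From NACs to ACs, values of the picked transcripts are given as a description because the ACs libraries chose them. In WT macrophages the 8 picked transcripts had log2 differences of 0.34 (Gm26917) to 1.19 (Gm11491), in a comparison where edgeR called 0 of 11844 genes (493 had an unadjusted p under 0.05, and DESeq2's Wald test called 0). In HDAC3 KO macrophages the differences ran from −2.34 for Gm12977, −2.20 for 9430060I03Rik and −2.10 for AI480526 to −0.41 for Gm4673. Neat1, which was not chosen in this way, was at 0.33 in WT macrophages (SE 0.418, edgeR adjusted p = 0.906). In HDAC3 KO macrophages it was at −1.91 (SE 0.403, edgeR adjusted p = 0.00477). That call held in each of the 8 alternative fits and in 5 of the 6 that left out a library. It was lost without HDAC3 KO ACs replicate 1, where edgeR called 0 genes (2169 had an unadjusted p under 0.05). In the HDAC3 KO comparison 7.38% of 12244 genes were called in either direction. Of 5 genes listed for sex 3 passed lower, the Y-linked Uty (−2.52), Eif2s3y (−1.89) and Ddx3y (−2.11), and 0 higher, where 4.73% of all genes passed lower. Of 9 fibroblast genes 4 passed higher and 0 lower. Between the labels with ACs, Uty was also lower (−2.08, edgeR adjusted p = 0.0486), as 1 of those 5. All these calls were lost without HDAC3 KO ACs replicate 1. Their part in the levels given here was not tested.

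Malat1 gave no call outside the ACs libraries. It had 676, 1022 and 614 CPM in WT untreated, 463, 339 and 1877 CPM in WT NACs, 2774, 603 and 120 CPM in HDAC3 KO untreated and 297, 800 and 332 CPM in HDAC3 KO NACs libraries. In HDAC3 KO untreated the libraries all lay far apart. In each of the other groups 1 library stood well away from the rest, and all pairs of groups overlapped. Its log2 fold change between the labels was −0.89 with NACs (SE 0.648, edgeR adjusted p = 0.388), or 0.32 without WT NACs replicate 3, the library with 1877 CPM, and 0.47 untreated (SE 0.770, edgeR adjusted p = 0.673), with SEs that leave room for a change of either sign.

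The 8 picked transcripts rose and fell together across the libraries. Over the 18 libraries, Pearson's r of log2(CPM + 1) in the 28 pairs among them was 0.687 to 0.965, with a median of 0.895. Over the 12 libraries without ACs it was 0.424 to 0.973, with a median of 0.883 and the lowest value between Zmiz1os1 and Gm12977. They were chosen for a shared difference in 6 of these libraries, so the values describe the set and test nothing. Malat1 had an r of 0.195 to 0.502 with them, and of 0.330 to 0.806 without the ACs libraries. Neat1 had an r of 0.00131 to 0.317, and of −0.443 to −0.172 without the ACs libraries. The gene most like AI480526, Gm10138 and Gm26917 over the 18 libraries was Hist1h4h, a gene for histone H4 (r of 0.968, 0.974 and 0.979). For Malat1 it was Smc2, a condensin subunit (0.918), and for Neat1 it was Dynlt3, a dynein light chain (0.966). For the remaining transcripts it was 4930535I16Rik (Gm4673, 0.937), Gpank1 (9430060I03Rik, 0.946), 2810454H06Rik (Gm12977, 0.963), Gm29707 (Zmiz1os1, 0.907) and Mir7675 (Gm11491, 0.938). For 8 of the 10 transcripts another gene came first over the 12 libraries without ACs.

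**Figure D5:**
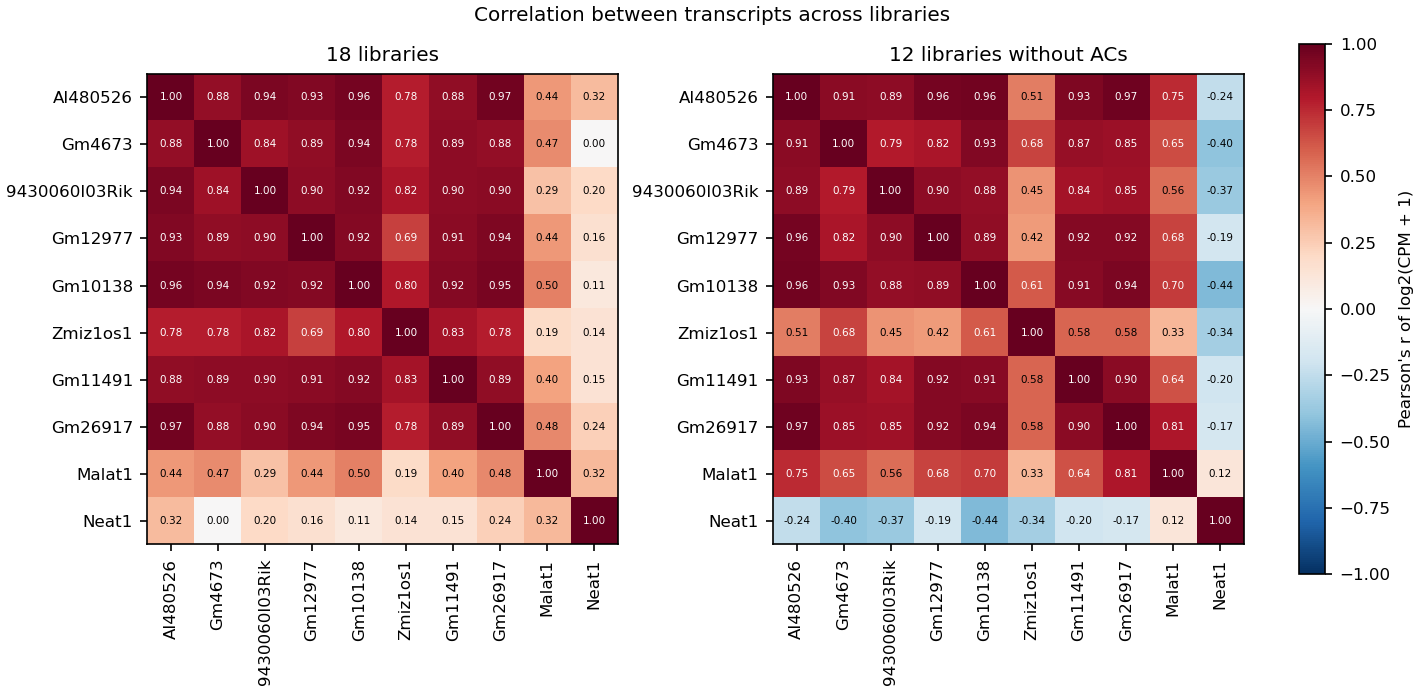
Pearson's r of log2(CPM + 1) between each pair of the 10 transcripts over the 18 libraries and over the 12 libraries without ACs, on a colour scale from −1 to 1. The 8 picked transcripts form a block with r of at least 0.687 over the 18 libraries, where Malat1 reaches at most 0.502 with them and Neat1 0.317. Over the 12 libraries Malat1 reaches 0.806 and Neat1 is below 0 with each of them.

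Several measures of the libraries moved with the picked transcripts. Their summed level without Gm26917, which would dominate the sum, was 66.8 to 77.6 CPM in WT untreated, 105 to 130 CPM in WT NACs and 148 to 185 CPM in WT ACs libraries. It was 38.7, 42.4 and 430.3 CPM in HDAC3 KO untreated, 24.7 to 60.3 CPM in HDAC3 KO NACs and 10.8 to 22.1 CPM in HDAC3 KO ACs libraries. The sum was lower in libraries with a higher total count, with Pearson's r of −0.77 on the log2 scale over 18 libraries, and of −0.67 without HDAC3 KO untreated replicate 1. Over the 12 libraries without ACs it was −0.83. Within the 9 WT libraries it was −0.38, and within the 9 HDAC3 KO libraries −0.85, or −0.41 without that one. The HDAC3 KO groups had median totals of 25379897, 20077532 and 21505343 counts and the WT groups of 13938432, 12731225 and 13316613 counts, in the order untreated, NACs and ACs, and HDAC3 KO NACs replicate 2, with the highest sum of its group, had the lowest total of its group (9431435). The sum also moved with the summed level of the 2503 other antisense genes (r of 0.91 over 18 libraries, 0.49 within WT and 0.95 within HDAC3 KO libraries, or 0.75 without that one), which was 751 to 893 CPM in WT NACs and 582 to 735 CPM in HDAC3 KO NACs libraries. For Neat1, r with the total count was −0.15 over the 18 libraries. With the TMM factor it was 0.52 over the 18 libraries and 0.83 over the 12 without ACs, against −0.12 and −0.24 for the sum. That factor was 1.011 to 1.515 in WT and 0.7411 to 0.8462 in HDAC3 KO untreated libraries. With NACs it was 0.7545 to 1.031 and 1.041 to 1.275. The part of depth or of scaling in these results was not tested. Depth and genotype label cannot be told apart where the groups do not share a range of totals.

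The other annotated antisense genes had a median log2 fold change of −0.51 with NACs over 184 tested. It was −0.30 over the 469 other long noncoding genes, which include these 184, 0.03 over 10951 protein-coding genes and 0.00 over all genes. In that comparison 1 of the 184 other antisense genes passed lower (0.543%, against 0.327% of all genes). Of 30 other well-known long noncoding RNAs, 13 were tested and 1 rose with NACs under the HDAC3 KO label: Firre, an RNA that binds chromatin, had a log2 fold change of 1.88 (SE 0.466, edgeR adjusted p = 0.0473), where 0.537% of all genes were called higher. Among 12 rows rich in ribosomal or small nuclear RNA, 5 were tested and 3 fell, where 0.327% of all genes were called lower: Rmrp, the RNA of RNase MRP (−1.92), Rpph1, the RNA of RNase P (−1.71), and Lars2, on the list as a gene that collects ribosomal reads (−1.71), each with adjusted p = 0.0443 (edgeR). As for Gm4673 and Gm10138, these calls and that on Firre were lost with all 18 libraries in 1 fit and without WT NACs replicate 1, where edgeR called 0 genes (2063 and 1652 had an unadjusted p under 0.05). With the offset edgeR called 1 gene in all, a lower one, so Firre and at least 2 of these 3 were lost there too.

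Of the 16 paraspeckle proteins, which bind Neat1 or share its bodies, 0 passed in the NACs comparison of the labels with edgeR (7 had an unadjusted p under 0.05, and DESeq2's Wald test called 0). Their median log2 fold change there was 0.42 against 0.00 over all genes, and their summed level was 729 to 770 CPM in WT and 799 to 918 CPM in HDAC3 KO libraries. In untreated macrophages 2 were higher (3.04% of all genes were) and 4 lower (8.56% of all genes were). These shares stand for 368 and 1036 genes. They became 749 and 888 genes with DESeq2 size factors and 54 and 2351 with library totals alone. The lower paraspeckle proteins were Hnrnpk (−1.92), Zfp24 (−2.08), Pspc1 (−1.66) and Tardbp (−1.41), with adjusted p from 0.0218 to 0.0415 (edgeR). Among the 16 paraspeckle proteins the interaction with treatment passed for 7 higher and 2 lower, with Hnrnpk at 3.17 and Pspc1 at 2.77. Of all genes 22.1% and 12.8% passed in these directions (2869 and 1661 genes). With DESeq2 size factors that balance turned, to 2284 and 2726 genes. Of the 18 genes of the nuclear exosome and its adaptors, 0 passed in the NACs comparison with edgeR (1 had an unadjusted p under 0.05, DESeq2's Wald test called 0, and the median was 0.33) and 5 were lower in untreated macrophages, among them Rbm7 (−2.56), Mtrex, the helicase that feeds RNA to the exosome (−2.38), and Exosc8, a core subunit (−1.80). The untreated calls on both lists come from a fit with HDAC3 KO untreated replicate 1, which stands apart. They were lost with the offset for GC share and exon length and without WT untreated replicate 2 or 3 or HDAC3 KO untreated replicate 3, where edgeR called 0 genes (2123, 2577, 3980 and 3593 had an unadjusted p under 0.05). The interaction passed higher for 9 of the 18, against 22.1% of all genes. The summed level of the exosome list was 435 to 564 CPM in WT NACs and 422 to 557 CPM in HDAC3 KO NACs libraries, which overlap. With ACs it was 499 to 620 CPM in WT and 304 to 363 CPM in HDAC3 KO libraries, which do not. There 3 of the 18 passed lower, Exosc5 (−1.70), Exosc4 (−1.61) and Zfc3h1 (−1.58), where 2.96% of all genes did. These 3 calls were lost without HDAC3 KO ACs replicate 1, where edgeR called 0 genes (1810 had an unadjusted p under 0.05).

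With NACs, where edgeR called 0.327% of all genes lower and 0.537% higher, markers of other cells were looked at by list. Of the granulocyte (12 tested), proliferation (12), fibroblast (9), B cell (3), T cell (3), dendritic cell (3) and K562 or erythroid (3) lists, edgeR called 0 in either direction. At an unadjusted p under 0.05 there were 2 granulocyte, 3 proliferation, 3 fibroblast, 1 B cell and 1 dendritic cell genes, and DESeq2's Wald test called 1, Retnlg, a granulocyte gene named after its value was seen. The summed levels of these lists overlapped between the labels. For K562 and erythroid genes it was 7.61 to 16.8 CPM in WT NACs and 6.89 to 20.3 CPM in HDAC3 KO NACs libraries, with 5 and 6 of 15 genes at 0. For granulocyte genes it was 628 to 1208 CPM and 312 to 980 CPM, and for dendritic cell genes 74.6 to 156.5 CPM and 37.6 to 99.2 CPM. In untreated macrophages, where HDAC3 KO untreated replicate 1 stands apart, 3.04% of all genes were called higher under the HDAC3 KO label. Of 3 dendritic cell genes Itgax was higher (3.15, adjusted p = 0.0331, edgeR), and the median of that list was 2.16. Of 12 proliferation genes only Plk1 was higher (1.92, adjusted p = 0.0348, edgeR), and the median of that list was −0.15. Of 4 genes listed for sex, the Y-linked Eif2s3y (−1.93) and Kdm5d (−2.21) were lower. The macrophage genes Lyz2 (−1.94) and Mrc1 (−1.51) were lower as well. The other 10 of the 12 macrophage genes did not pass, and the median of the list was 0.57, where 8.56% of all genes were called lower. These untreated calls were lost in the same fits as those on the paraspeckle and exosome lists. The part of these cells in the levels of the 10 transcripts was not tested.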

How the data were processed

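The authors sent RNA to Azenta for sequencing, which gave 18 libraries (NEBNext Ultra II RNA, paired-end). The deposited values are whole counts of reads per gene, with no normalization. The submitters' processing notes name Trimmomatic 0.36, STAR 2.5.2b, featureCounts of Subread 1.5.2 and GRCm38. The strand setting and annotation release are not given in the sources used here. Of 49315 gene identifiers, 49056 are shared with GENCODE M21 and 44858 have the same start and end. No row lacked a gene (0), and 0 columns were left unmapped.

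The libraries of each comparison were fitted separately with edgeR 4.0.16 (R 4.3.3): filterByExpr (minimum count 10, minimum total 15), TMM scaling, robust glmQLFit, glmQLFTest, and Benjamini-Hochberg adjustment over all genes tested, with a threshold of 0.05. All 10 transcripts passed the filter in each of these main fits. Exact two-sided permutation tests used log2(CPM + 1). A count of 0 allows up to 3 counts, and such limits cover counting error only. The tests were checked on simulated data. The alternatives were no filter, scaling by DESeq2 size factors or by library totals alone, DESeq2's own Wald test (1.42.0), 1 fit over all 18 libraries, an offset for GC share and exon length (mgcv 1.9.3), a replicate block, block and offset together, and each library left out in turn. The measures of the libraries set beside the summed levels were chosen after seeing the data.

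The members and lists were chosen with earlier results of these data known. The genes named are the 10 members, Hdac3, for each list at most 4 genes past the threshold by smallest p, the gene most like each member by Pearson correlation, and genes that overlap or flank a member, of which the text gives only some. P-values measure the spread between 3 replicates per group.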

Additional observations from a re-analysis of the deposited data

Results flagged for a closer look

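The difference between the genotype labels with NACs differed from that in untreated macrophages, by the interaction term of the edgeR fit on 12 libraries, for 2 of the 10 transcripts. On the log2 scale the interaction was 2.94 for Neat1 and −2.30 for Gm10138. Among genes that overlap or flank a transcript it was −2.58 for Lsr, −1.32 for Usf2, 2.98 for Ivns1abp, 1.37 for Zmiz1, 1.71 for Trim37 and −3.18 for Gm42418. Among paraspeckle proteins it was 3.17 for Hnrnpk, 3.11 for Zfp24, 2.77 for Pspc1 and 2.36 for Tardbp. Among genes of the nuclear exosome and its adaptors it was 3.21 for Mtrex, 3.62 for Rbm7, 2.62 for Exosc8 and 2.43 for Zcchc8. The other long noncoding RNAs with an interaction were Firre (4.02), Tug1 (2.46) and Mir22hg (2.42), and Lars2 had one of −2.74. In these libraries 34.8% of all genes had an interaction. Without HDAC3 KO untreated replicate 1, which stands apart, the interaction was 2.62 for Neat1 (edgeR adjusted p = 0.00199) and −0.93 for Gm10138 (edgeR adjusted p = 0.132).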

How the results depend on the processing

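Of 640 member values under the 8 alternatives in the 8 comparisons, 41 changed sign, all of them past the threshold in neither fit. Of 540 values with a library left out, 29 changed sign and 6 of these were past the threshold in 1 of the fits. These were in untreated macrophages AI480526 (from −1.07 to 0.96 over the libraries left out), Gm4673 (−1.07 to 2.22), Gm12977 (−2.14 to 1.60) and Gm26917 (−1.31 to 0.79), each negative without HDAC3 KO untreated replicate 1. In that fit Gm12977 passed the filter on low counts through the WT libraries, so its call carries no test. The others were Malat1 between the labels with ACs (−1.95 to 0.96) and from NACs to ACs in HDAC3 KO macrophages (−1.51 to 1.51), each negative without HDAC3 KO ACs replicate 2. The cause was not tested.

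The number of the 10 transcripts past the threshold between the labels with NACs was 2, and 0 with library totals alone, with all 18 libraries in 1 fit and with the offset for GC share and exon length with or without a replicate block, and 3 with DESeq2 size factors, the Wald test or no filter. In untreated macrophages it was 0, and 1 with library totals alone, the Wald test, all 18 libraries or the replicate block. For NACs against untreated in WT it was 1, and 0 with DESeq2 size factors, library totals alone, no filter, all 18 libraries or the offset with or without the block, and 2 with the Wald test. For NACs against untreated in HDAC3 KO it was 0, and 1 with library totals alone or all 18 libraries and 2 with the Wald test or no filter. For the interaction it was 2, 1 with library totals alone, the block, the offset or both, and 3 with DESeq2 size factors or all 18 libraries. With libraries left out, these numbers ranged from 0 to 4, 0 to 6, 0 to 2, 0 to 1 and 1 to 4.

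Over all genes, the count with NACs was 103, and it was 16 with library totals alone, 434 with the Wald test, 575 with no filter, 0 with all 18 libraries (2063 had an unadjusted p under 0.05 in edgeR), 217 with the replicate block, 1 with the offset and 5 with both. The untreated count was 1404, and it was 2405 with library totals alone, 3314 with the Wald test, 3308 with all 18 libraries and 0 with the offset, alone (2123 unadjusted, edgeR) or with the block. For NACs against untreated in WT it was 1015, and it was 0 with library totals alone (3437 unadjusted, edgeR), all 18 libraries or the offset, 1679 with the Wald test, 454 with no filter, 1784 with the block and 7 with block and offset. In HDAC3 KO it was 794, and it was 0 with DESeq2 size factors (4004 unadjusted, edgeR), the block, the offset or both, 2112 with library totals alone, 2308 with the Wald test and 1479 with no filter. The interaction count was 4530, and it was 1748 with the offset and 1434 with block and offset. With ACs it was 461, and it was 1373 with the Wald test, 728 with no filter and 1290 with the offset. From NACs to ACs it was 0 in WT, and 47 with no filter, and in HDAC3 KO it was 904, and it was 578 with library totals alone, 1430 with the Wald test, 252 with all 18 libraries and 1400 with the block. With libraries left out, the counts ranged from 0 (without WT NACs replicate 1) to 3121 (without WT NACs replicate 2) between the labels with NACs, from 0 (without WT untreated replicate 2 or 3 or HDAC3 KO untreated replicate 3) to 5887 untreated, from 21 to 4232 and from 0 to 4441 for NACs against untreated in WT and in HDAC3 KO, from 3043 to 6297 for the interaction, from 0 to 1693 with ACs, and from 0 to 1 and from 0 to 3013 from NACs to ACs in WT and in HDAC3 KO.

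Library totals alone moved the median log2 fold change of all genes with NACs from 0.00 to 0.31, and that of the interaction from 0.12 to 0.70. The interaction median was −0.27 with DESeq2 size factors, −0.28 with all 18 libraries in 1 fit and −0.26 with no filter. Library totals alone moved 10 of 60 group means by 1 SD or more. Whether same-numbered libraries share an animal is not stated in the sources used here. Over 21 pairs of same-numbered libraries the correlation of their deviations was −0.49 to 0.21, over 0.1 in 4. These 4 all lay within a label, 1 in each comparison of treatments. Pairs between the labels cannot share an animal, so the range over all pairs cannot decide on pairing. The block values above are given as a check. Gm11491, with as few as 3 counts in a library, is limited most by depth.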
